A study of Mus musculus with 6 samples.

Results

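The gene set comprised 37 mouse genes of the megakaryocyte and red cell lineages: 10 platelet surface receptors, 4 platelet granule and adhesion proteins, 3 megakaryocyte cytoskeleton and signalling proteins, 7 transcription factors, 4 globins, 4 genes of heme synthesis and iron uptake, and 5 red cell membrane proteins and carbonic anhydrases. A named list fixed the members, and each was found by matching the Ensembl ID, without its version, to its symbol. All 37 were present among the 41128 genes of the deposited table. Of these, 31 reached a mean of 1 RPM (reads after scaling to a common library total), the level from which 13597 genes were tested. The libraries came from C57BL mouse bone marrow sorted for LTR-HSC, the long-term repopulating stem cells of blood formation, gated as Lin-, Sca1+, c-Kit+, CD41-, CD48- and CD150+. Mice had received YH250, a small molecule described in the submitters' text as blocking the contact of p300 with catenin, at 2 mg/kg under the skin, or its vehicle DMSO, and marrow was taken 16 h later. There were 3 libraries of each, numbered 1 to 3 in both groups, made from amplified cDNA of very small RNA inputs and read as 50-base single ends. The labels give neither the age of the mice nor whether the libraries came from separate animals, so the p-values measure only the spread between these libraries.

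Megakaryocytes and red cell precursors descend from a shared progenitor, and a subset of hematopoietic stem cells already carries transcripts of the platelet program. Gata1, together with the cofactor encoded by Zfpm1, switches on genes of both lineages, while Nfe2 (platelet production) and Klf1 (red cell genes) act further along each branch. Mature members of the set include the GPIb-IX-V receptor for von Willebrand factor, the contents of platelet granules, hemoglobin and the enzymes of heme synthesis.

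Between 0.0321 and 0.0455 RPM corresponded to 1 read, which puts 21.96 to 31.19 reads behind a level of 1 RPM. A gene with 0 reads in a library could still have stood at up to 0.0962 to 0.137 RPM (3 reads; this covers counting error only). The first principal component of the tested genes held 48.0% of the variance and placed both libraries numbered 3 apart from the other 4. The second held 26.9% and placed YH250 2 at -79.3, against -0.846 to 36.2 for the other 5. The labelled sort was the same for all libraries, yet Slamf1, Itga2b and Cd48, genes of its markers, went by number. Slamf1, which encodes CD150, was at 31.5 and 35.5 RPM in YH250 1 and DMSO 1 but between 0.515 and 4.69 RPM in the other 4. Itga2b, which encodes the excluded CD41, was at 37.4 and 43.7 RPM at number 1, 26.3 and 15.3 RPM at number 2, and 7.13 and 5.65 RPM at number 3. Cd48 was at most at 66.9 RPM in numbers 1 and 2 and at 252 and 258 RPM at number 3, and Flt3, a receptor of multipotent and lymphoid progenitors, was at 28.9 and 26.6 RPM at number 1 and at 224 RPM or more in the others. Kit was at 130 to 218 RPM after YH250 and 213 to 318 RPM after DMSO.

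Some summed markers of other marrow cells also went by number. The 8 B cell genes summed to 170, 288 and 810 RPM in YH250 1, 2 and 3, and to 64.0, 269 and 616 RPM in DMSO 1, 2 and 3. The 8 T and NK cell genes summed to 116, 165 and 401 RPM after YH250 and to 52.5, 92.8 and 446 RPM after DMSO. Within each treatment both sums were highest in number 3 and lowest in number 1. Nkg7 alone held 283 and 340 RPM of the T and NK sum in YH250 3 and DMSO 3. Il2rb was highest in YH250 2, at 19.5 RPM, and Gzma in DMSO 2, at 7.54 RPM. Every gene of both lists was detected in at least 1 library, Pax5 at 0.273 RPM at most. The 7 mast cell and basophil genes summed to 3.69, 12.6 and 77.7 RPM after YH250 and to 0.576, 0.405 and 32.2 RPM after DMSO, with Cma1 and Tpsb2 at 0 in all 6 libraries. The 12 granulocyte and monocyte genes summed to 432, 579 and 591 RPM in YH250 1, 2 and 3 and to 316, 470.0 and 687 RPM in DMSO 1, 2 and 3. Of them, Prtn3 and Lyz2 were not called in number 1 minus number 3, and Mpo (-5.12, limma adjusted p = 0.00128) and Ctsg (-4.13, 0.00404) were lower in number 1. The 12 endothelial genes summed to 221 to 331 RPM after YH250 and 196 to 274 RPM after DMSO. The 8 stromal genes summed to 292 RPM in YH250 2, against 17.2 to 64.4 RPM in the other 5 libraries. Cxcl12 (202 RPM) and Lepr (58.2 RPM) held most of that sum. The other listed stromal genes were at 9.55 RPM or less in YH250 2. Of them, Col1a1 (0.291 RPM) and Pdgfrb (8.79 RPM) were not highest in that library. In bulk RNA, fewer cells of a type and less RNA per cell cannot be told apart, and the part of these marker levels in the results that follow was not tested.

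**Figure D1:**
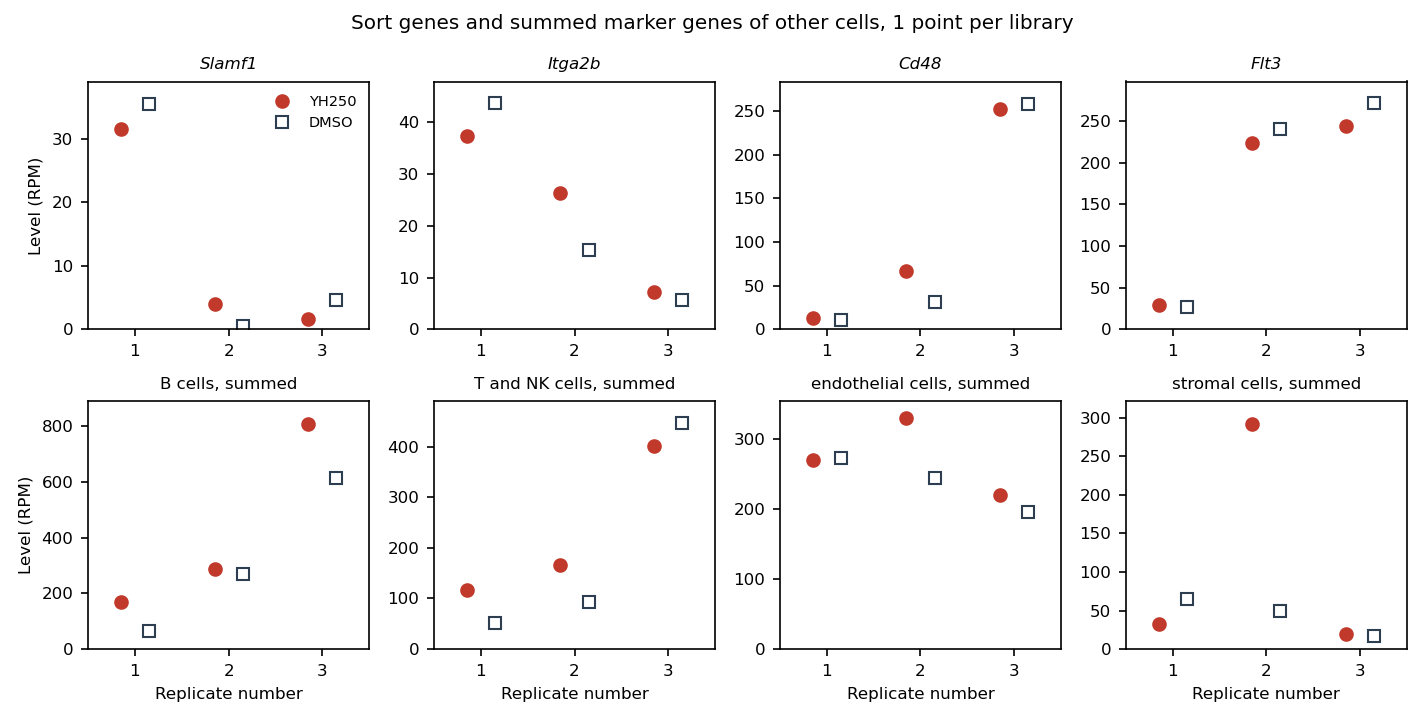
Levels in RPM (vertical axes, from 0) of the sort genes Slamf1, Itga2b and Cd48, of Flt3, and of 4 summed marker lists, against replicate number. There is 1 point per library (filled circles YH250, open squares DMSO). Slamf1 and Itga2b are highest in number 1, at 31.5 to 43.7 RPM, Cd48 and both lymphoid sums are highest in number 3, and the stromal sum is at 292 RPM in YH250 2.

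Per kilobase of annotated exon, with all exons of a gene merged, the mean level over the 6 libraries ran from 462 RPM per kb for Car2 to 0 for Gp6. The order of genes on this scale is approximate, because expressed transcripts can be shorter than the merged exons. Car2, a cytosolic carbonic anhydrase of red cell precursors and other cells, was followed by Rgs18 (166 RPM per kb), a regulator of G protein signalling that is abundant in platelets, and by the beta globin gene Hbb-bt (138 RPM per kb). Next came Nfe2 (67.4 RPM per kb), Car1 (40.4 RPM per kb) and Pf4, which encodes platelet factor 4 (32.8 RPM per kb). At the other end, 6 members did not reach a mean of 1 RPM and were not tested. Gp6, the platelet collagen receptor, had no reads in any library, and Tubb1, the beta tubulin of the platelet rim, had 2 reads in YH250 1 and none elsewhere. Slc4a1, the anion exchanger of the red cell membrane, reached at most 0.0400 RPM after YH250 and 0.184 RPM after DMSO. Mpig6b, an inhibitory platelet receptor, reached at most 0.256 RPM after YH250 and 0.0368 RPM after DMSO. Alas2, the red cell form of the enzyme that starts heme synthesis, was at 0.385, 0.120 and 0.676 RPM in YH250 1, 2 and 3 and at 0.614, 1.40 and 0.410 RPM in DMSO 1, 2 and 3. Hba-a1, an alpha globin gene given with its pair further on, was the other.

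**Figure D2:**
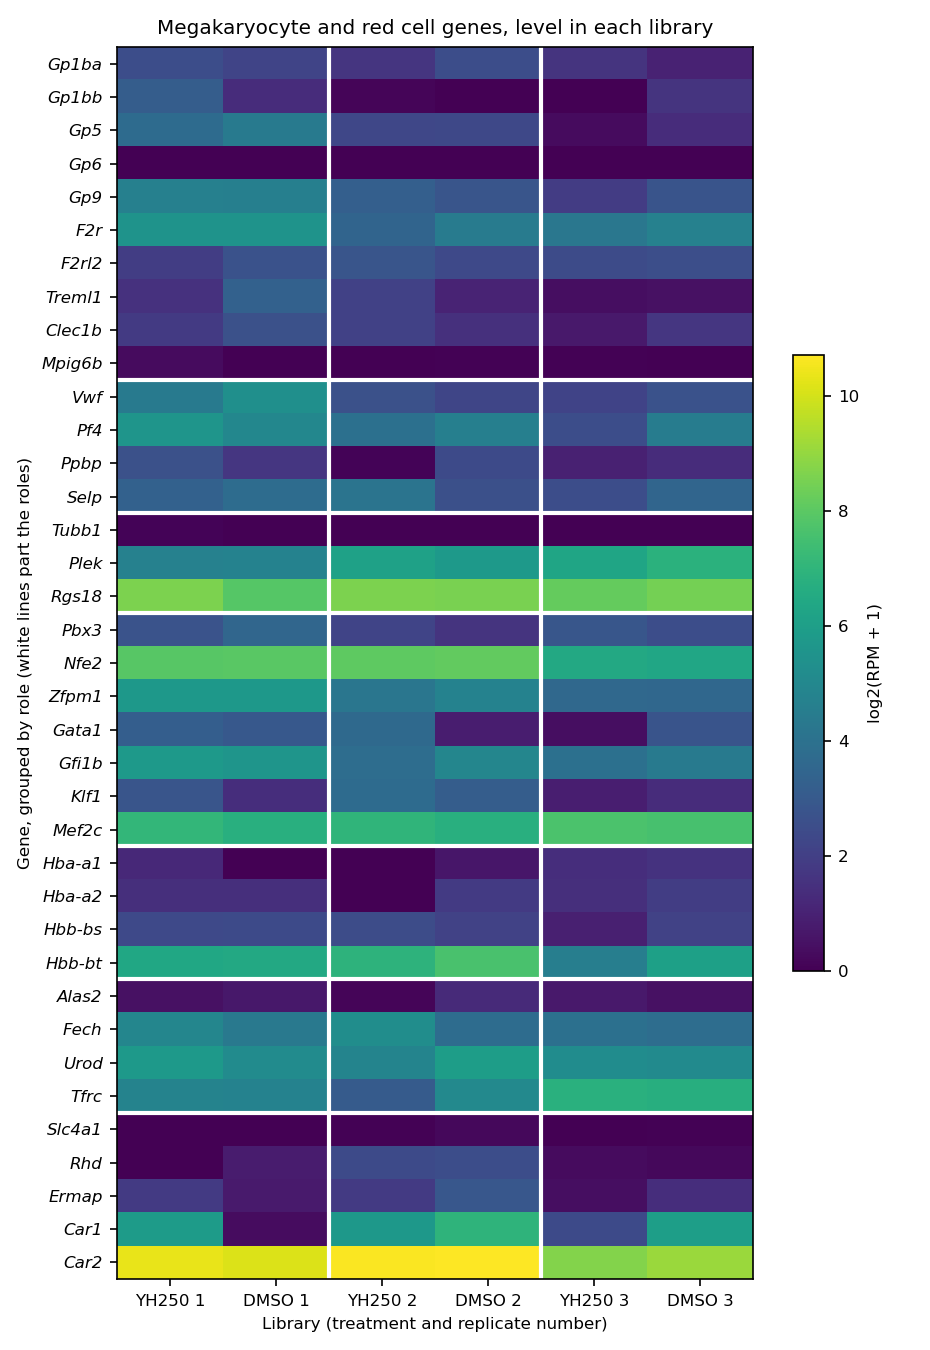
Level of each of the 37 members as log2(RPM + 1) (colour scale, 0 dark), with genes down the page grouped by role and libraries across, YH250 left of DMSO within each replicate number. Car2, Rgs18, Nfe2 and Mef2c are bright in all 6 libraries, while Gp6, Tubb1, Slc4a1 and Mpig6b are near 0 throughout.

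Lineage genes were first compared between treatments. None of the 31 members passed in YH250 minus DMSO (limma on log2(RPM + 1), Benjamini-Hochberg adjusted p under 0.05 over 13597 genes), where the share of all tested genes called was likewise 0%. Without adjustment, 231 genes (1.7% of those tested) had a limma p under 0.05, and no member was among them. The members' log2 differences were positive for 10 and negative for 21, with a median of -0.15, against 0.02 for all tested genes. The YH250 and DMSO libraries overlapped for every tested member, whereas 7.48% of all tested genes had groups that did not overlap. The median 95% interval of a member reached 1.37 log2 units to either side, and 0.953 with the replicate number as a block. In the fit with the block, again no gene passed and the smallest adjusted p was 0.66, against 0.999 without the block. There 1012 genes, 7.44%, had an unadjusted p under 0.05, among them the members Fech and Hbb-bt.

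**Figure D3:**
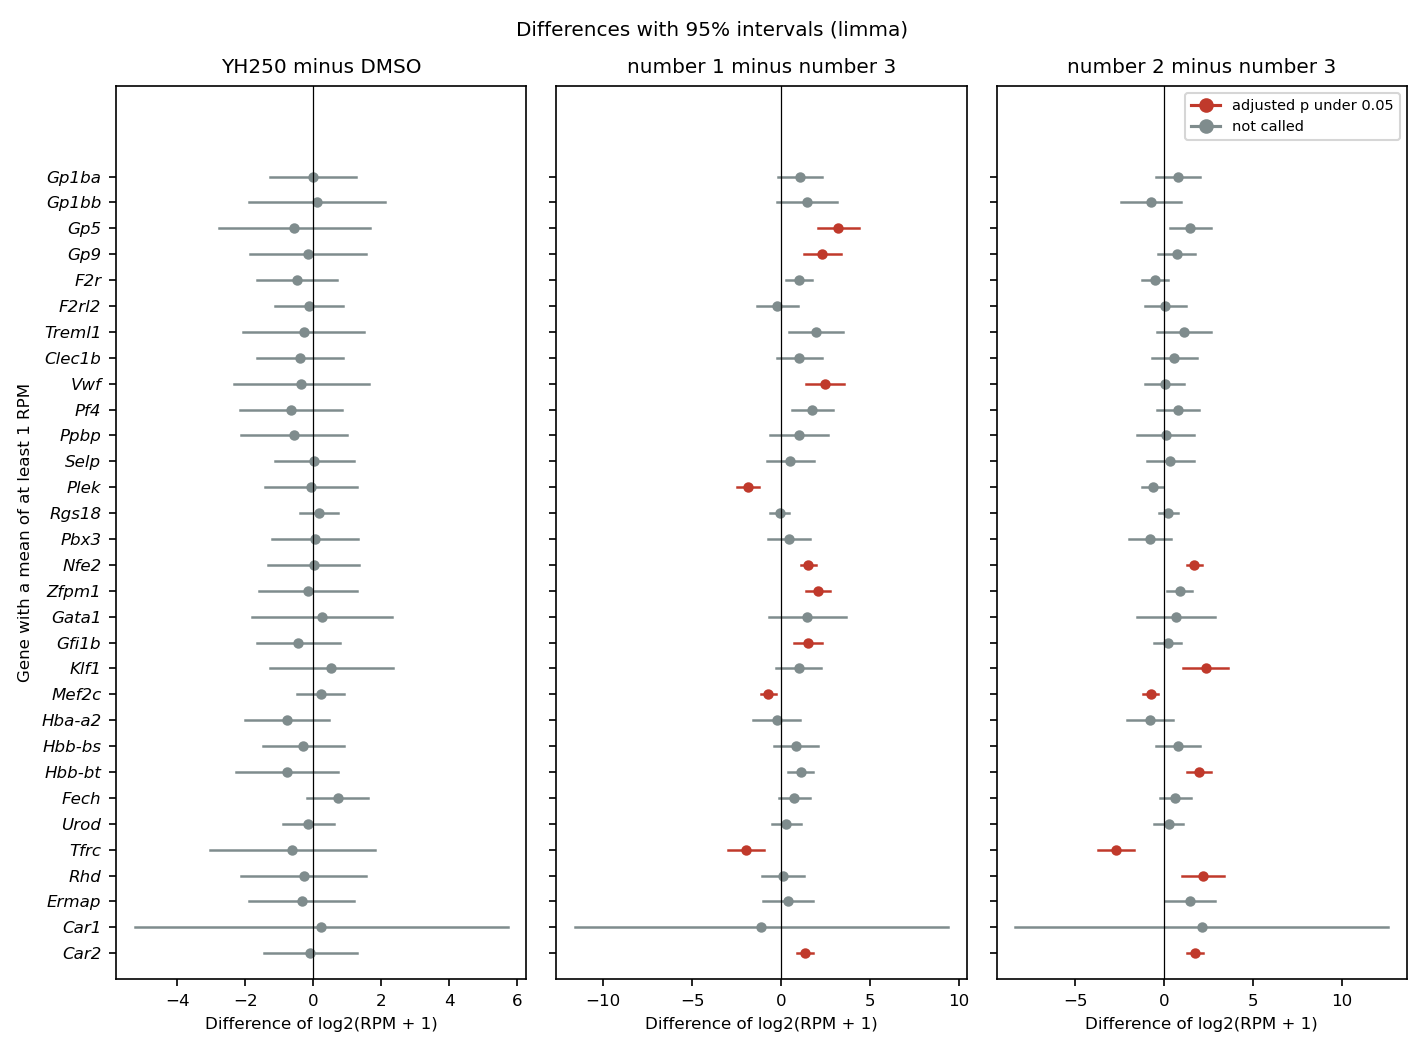
Differences of log2(RPM + 1) with 95% intervals from limma for the 31 tested members, in YH250 minus DMSO (left), number 1 minus number 3 (middle) and number 2 minus number 3 (right), each panel with its own horizontal scale. All intervals on the left span 0, and red points mark the 10 members in the middle and 7 on the right that passed at an adjusted p under 0.05.

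Platelet surface receptors gave small differences by treatment. F2r, the thrombin receptor PAR1, was at 44.9, 9.97 and 18.3 RPM in YH250 1, 2 and 3 and at 44.4, 20.8 and 25.1 RPM in DMSO 1, 2 and 3. Its level in number 1 was within 1 RPM in both treatments, and the groups overlapped. The log2 difference was -0.47 (SE 0.52, n = 3 each; limma adjusted p = 0.999). Of the 8 receptors tested, 7 had a negative difference and 1 a positive one, with a median of -0.22 and a range from -0.56 for Gp5 to 0.10 for Gp1bb. Gp1bb, a chain of the von Willebrand factor receptor, had 7.94, 0.110 and 0 RPM after YH250 and 1.58, 0 and 2.09 RPM after DMSO. It overlaps the gene listed as Sept5, and whether strand was used in counting is not stated, so its reads are uncertain. Sept5 itself was at 0.112 RPM or less after YH250 and at 1.53, 0 and 0 RPM after DMSO.

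Granule and adhesion genes overlapped between treatments too. Pf4 was at 47.4, 14.5 and 4.84 RPM in YH250 1, 2 and 3 and at 29.97, 23.7 and 21.5 RPM in DMSO 1, 2 and 3. The YH250 libraries held both its highest and its 2 lowest values. Its log2 difference was -0.66 (SE 0.66), and by number it was 0.64 at number 1, -0.67 at number 2 and -1.95 at number 3. Ppbp, the precursor of platelet basic protein, was at 5.35, 0.0800 and 0.959 RPM after YH250 and 2.26, 4.27 and 1.59 RPM after DMSO, the value in YH250 2 resting on 2 reads. Selp, which encodes P-selectin, was at 9.004, 16.5 and 4.82 RPM after YH250 and 12.7, 5.11 and 10.3 RPM after DMSO, with no gap between the groups.

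Transcription factors overlapped between treatments. Nfe2 averaged 199 ± 97.5 RPM after YH250 and 204 ± 108 RPM after DMSO (SD, n = 3 each), and Zfpm1 averaged 26.8 ± 21.4 RPM after YH250 and 29.2 ± 20.2 RPM after DMSO. Gata1 was at 8.30, 11.7 and 0.334 RPM in YH250 1, 2 and 3 and at 6.64, 0.809 and 5.83 RPM in DMSO 1, 2 and 3. Each treatment held 1 library with very little Gata1, number 3 after YH250 and number 2 after DMSO. It averaged 6.78 ± 5.84 RPM after YH250 and 4.43 ± 3.16 RPM after DMSO. The fitted log2 difference was 0.25 (SE 0.91), and by number it was 2.81 at number 2 and -2.36 at number 3. Klf1, whose protein directs globin expression, was at 6.06, 12.6 and 0.876 RPM after YH250 and at 1.65, 7.84 and 1.55 RPM after DMSO. It averaged 6.496 ± 5.85 RPM after YH250 and 3.68 ± 3.60 RPM after DMSO, with a difference of 0.53 (SE 0.80). Mef2c, a factor with roles in megakaryocytes and in lymphoid progenitors, had small positive differences at all 3 numbers, 0.34, 0.22 and 0.09, and a fitted difference of 0.22 (SE 0.30).

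Heme enzymes and globins held 3 of the 5 members whose difference kept its sign at every number. Fech encodes the enzyme that inserts iron into protoporphyrin to form heme. Its level was 29.0, 36.98 and 14.4 RPM in YH250 1, 2 and 3. In DMSO 1, 2 and 3 it was 19.4, 12.7 and 13.1 RPM. The YH250 library held more at each number, but YH250 3 lay below DMSO 1, so the groups overlapped. The log2 difference was 0.72 (95% interval -0.17 to 1.61; limma adjusted p = 0.999, and 0.66 with the block). Hbb-bt was at 82.6, 121 and 23.1 RPM after YH250 and 88.6, 199 and 66.9 RPM after DMSO, less after YH250 at each number, with a log2 difference of -0.77 (95% interval -2.28 to 0.74; limma adjusted p = 0.999, and 0.66 with the block). In all, 5 of the 31 members had the same sign at all 3 numbers, Fech and Mef2c positive and Gp5, Hba-a2 and Hbb-bt negative, while 31.1% of all tested genes did.

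The 4 adult globin genes form near-identical pairs, and their reads cannot be assigned securely. The coding sequences of Hbb-bt and Hbb-bs (444 bases each, GENCODE M21 transcripts, chromosome 7) differ at 1 base, number 417 from the A of the start codon. Those of Hba-a1 and Hba-a2 (429 bases each, chromosome 11) differ at base 381. Of the 50-base windows in the coding sequence, the length of a read here, 92.9% were shared within the beta pair and 87.1% within the alpha pair, and over whole transcripts the shares were 58.3% and 67.5%. The stretches around the differing base, in capitals, show how little of the coding sequence tells the members of a pair apart.
Hbb-bt: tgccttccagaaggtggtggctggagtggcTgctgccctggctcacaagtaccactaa
Hbb-bs: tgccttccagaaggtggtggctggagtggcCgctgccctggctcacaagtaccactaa
Hba-a1: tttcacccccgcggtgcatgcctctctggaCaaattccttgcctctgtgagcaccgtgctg
Hba-a2: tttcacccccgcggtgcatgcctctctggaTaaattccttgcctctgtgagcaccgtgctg
The deposited values were nonetheless far apart within the beta pair. Hbb-bs was at 4.16, 4.61 and 0.943 RPM after YH250 and at 4.38, 3.35 and 3.36 RPM after DMSO, well under Hbb-bt in every library. Hba-a2 was at 1.69, 0 and 1.74 RPM after YH250 and 1.73, 2.49 and 2.80 RPM after DMSO. Hba-a1 was at 1.32, 0 and 1.64 RPM after YH250 and 1e-05, 0.561 and 1.93 RPM after DMSO. Both alpha genes were at 0 in YH250 2, where Hbb-bt stood at 121 RPM.

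Carbonic anhydrases and red cell membrane genes gave no difference by treatment that passed. Car1, an abundant enzyme of red cells (chromosome 3, 14766216 to 14808368), was at 58.4, 51.8 and 4.38 RPM in YH250 1, 2 and 3 and at 0.283, 123 and 64.1 RPM in DMSO 1, 2 and 3. Its level in DMSO 1 rested on 7.39 reads, against 105 or more in every other library, and its highest and lowest values, both after DMSO, were 435-fold apart. The log2 difference was 5.53 at number 1, -1.23 at number 2 and -3.60 at number 3, and the fitted one, 0.23, had a 95% interval from -5.26 to 5.73. Rhd, a Rhesus blood group protein, was at 0, 4.36 and 0.250 RPM after YH250 and at 0.767, 4.78 and 0.182 RPM after DMSO. Ermap, an erythroid membrane protein, was at 2.499, 2.58 and 0.333 RPM after YH250 and at 0.694, 6.54 and 1.64 RPM after DMSO. For both genes the groups overlapped.

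Members differed between replicate numbers. In number 1 minus number 3, with treatment as a second term, 10 of the 31 members passed (limma, Benjamini-Hochberg), against 8.56% of all tested genes (1164 genes: 2.96% higher and 5.6% lower in number 1). The receptor and adhesion genes Gp5, Gp9 and Vwf, the transcription factor genes Nfe2, Zfpm1 and Gfi1b and the carbonic anhydrase gene Car2 were higher in number 1, and Plek, Tfrc and Mef2c were lower. The members' median log2 difference was 1.02 and that of all genes -0.04. In number 2 minus number 3, 7 members passed, against 6.31% of all tested genes (858 genes: 2.64% higher and 3.67% lower in number 2), with medians of 0.63 for the members and -0.08 for all genes. There Hbb-bt, Rhd, Klf1, Car2 and Nfe2 were higher in number 2, and Tfrc and Mef2c were lower. Between numbers 1 and 2 no member passed, while 27 genes, 0.199%, did so. In that comparison 12 members had an unadjusted p under 0.05, as did 14.3% of all tested genes, and the medians were 0.28 for the members and -0.01 for all genes. Any 2 of these 3 comparisons share the libraries of 1 number, so they are not independent. The members were chosen with earlier results of these data known, so their counts beside all tested genes, here and below, are descriptive only.

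The counts over all genes leaned on single libraries and on the scaling. In number 1 minus number 3 the count was 3010 without YH250 2, 2917 without DMSO 2, 457 without DMSO 1 and 417 without DMSO 3, and in number 2 minus number 3 it was 3137 without DMSO 2 and 250 without DMSO 3. Between numbers 1 and 2 it was 53 without YH250 1, 296 without YH250 2, 134 without YH250 3, 1764 without DMSO 2 and 89 without DMSO 3. Of the calls in number 1 minus number 3, 403 were higher and 761 lower, but 661 were higher and 642 lower after quantile normalization, and 891 higher and 465 lower once the genes of each library were rescaled to the same sum. In number 2 minus number 3 the calls were 359 higher and 499 lower, 524 higher and 438 lower after quantile normalization, and 694 higher and 344 lower after rescaling. Before rescaling, the genes summed to 779144 and 699979 RPM in YH250 1 and DMSO 1. The sums were 849188 and 756066 RPM in YH250 2 and DMSO 2, and 936080 and 959240 RPM in YH250 3 and DMSO 3. Rescaling moved the median of all genes to 0.28 in number 1 minus number 3, where that of the members was 1.29. In number 2 minus number 3 it moved the median of all genes to 0.14, where that of the members was 0.79.

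**Figure D4:**
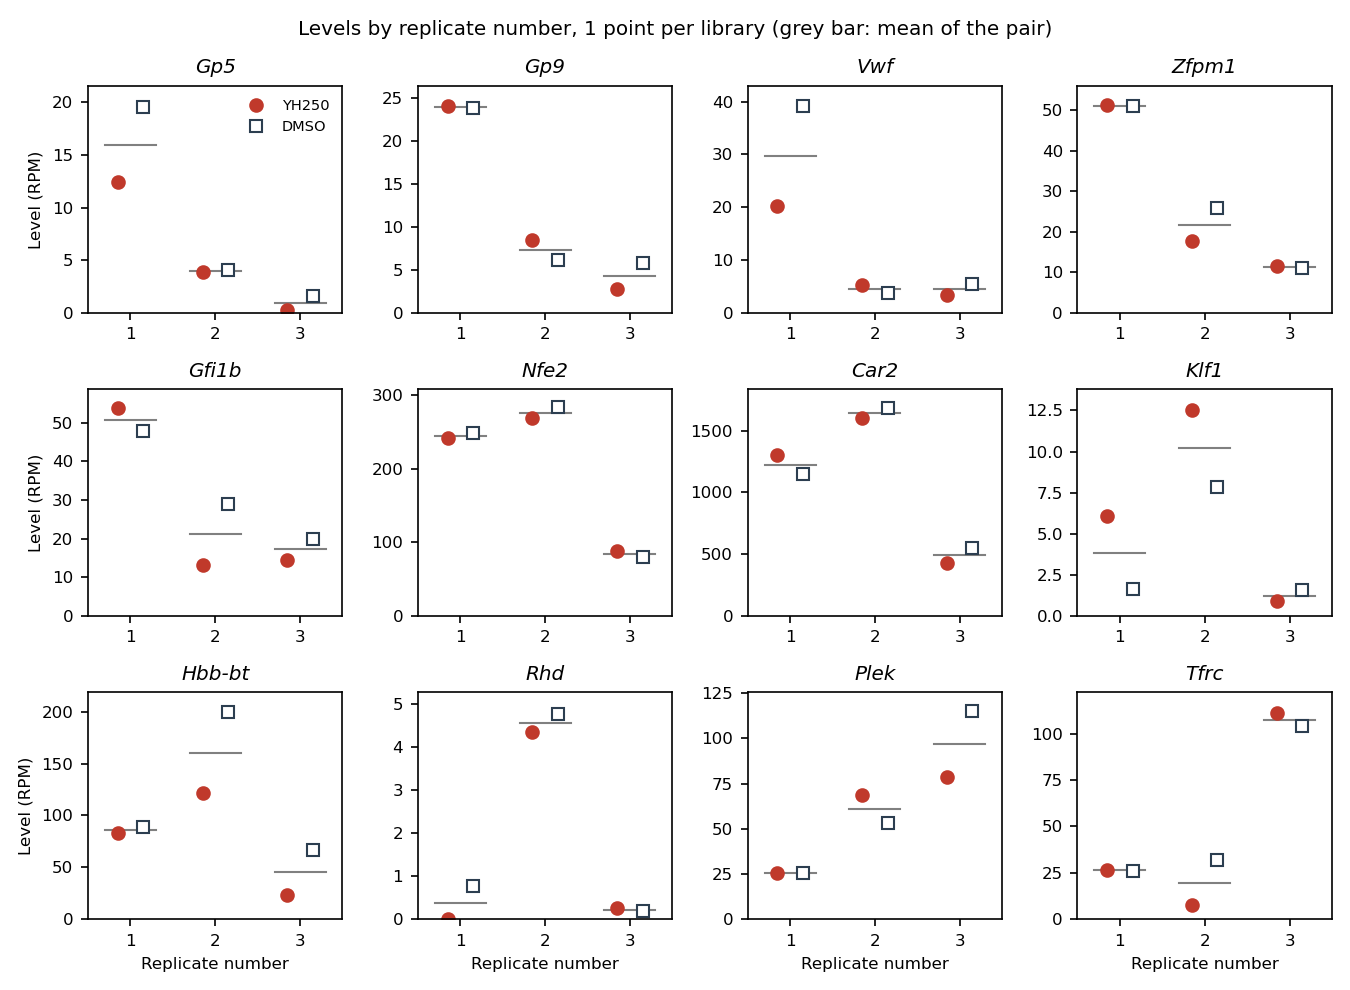
Level in RPM (vertical axes, from 0, each gene on its own scale) of 12 members against replicate number, with 1 point per library (filled circles YH250, open squares DMSO) and a grey bar at the mean of the 2 libraries of a number. Gp5, Gp9, Vwf, Zfpm1 and Gfi1b are highest in number 1, Nfe2 and Car2 are lowest in number 3, and Plek and Tfrc are highest in number 3, where Tfrc stands at 111 and 104 RPM.

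Of the receptor chains, Gp5 and Gp9 were called by number. Gp5, the GPV chain that thrombin cleaves (chromosome 16, 30307685 to 30310779), was at 12.4 and 19.6 RPM in YH250 1 and DMSO 1, at 3.88 and 4.05 RPM in YH250 2 and DMSO 2, and at 0.250 and 1.55 RPM in YH250 3 and DMSO 3. The numbers did not overlap, and YH250 3 rested on 6 reads. The log2 difference in number 1 minus number 3 was 3.22 (SE 0.51; limma adjusted p = 0.00528), and 1.82 with a pseudocount of 5, where it was still called. In number 2 minus number 3 it was 1.48 (limma adjusted p = 0.114). Gp9, the chain that GPIb needs to reach the surface (chromosome 6, 87778072 to 87779768), was at 24.1 and 23.9 RPM at number 1, 8.51 and 6.11 RPM at number 2, and 2.71 and 5.83 RPM at number 3. Number 1 was high and the other numbers were closer, with log2 differences of 2.31 (SE 0.47; limma adjusted p = 0.0164) in number 1 minus number 3 and 0.71 (limma adjusted p = 0.378) in number 2 minus number 3. The Gp9 call was lost without YH250 1 (2.19, limma adjusted p = 0.0975), YH250 3 (1.76, 0.147) or DMSO 1 (2.43, 0.0956).

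The remaining receptors were not called by number. Gp1ba, the chain that binds von Willebrand factor, was at 4.78 and 3.65 RPM at number 1, 2.12 and 4.82 RPM at number 2, and 2.04 and 1.047 RPM at number 3, lowest in number 3. F2r stood higher in both libraries of number 1 than in the other 4, with 1.03 (limma adjusted p = 0.0879) in number 1 minus number 3, and was called without YH250 2 (0.00389) or DMSO 2 (0.00651). Treml1, a receptor stored in platelet granules, was at 1.86 and 8.98 RPM at number 1, 3.24 and 1.07 RPM at number 2, and 0.334 and 0.410 RPM at number 3. Number 3 was lowest, and the difference of 1.96 in number 1 minus number 3 had a limma adjusted p of 0.11. It was called without YH250 1 (3.10, limma adjusted p = 0.0257), YH250 2 (1.96, 0.00569) or DMSO 2 (1.96, 0.00614). Clec1b, the podoplanin receptor CLEC-2, was between 0.684 and 5.25 RPM. F2rl2, a thrombin receptor subunit whose gene overlaps Iqgap2 (at 84.3 to 156 RPM), was between 2.89 and 6.12 RPM.

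Vwf, the adhesive protein of platelets and endothelium (chromosome 6, 125546774 to 125686679), was at 20.2 and 39.1 RPM in YH250 1 and DMSO 1, at 5.29 and 3.67 RPM in YH250 2 and DMSO 2, and at 3.41 and 5.48 RPM in YH250 3 and DMSO 3. Number 1 stood far above the other 4 libraries, which overlapped. The log2 difference was 2.45 (SE 0.48; limma adjusted p = 0.0144) in number 1 minus number 3 and 2.43 (limma adjusted p = 0.106) in number 1 minus number 2. The first was not called without YH250 3 (2.29, limma adjusted p = 0.0759), DMSO 1 (2.02, 0.251) or DMSO 3 (2.61, 0.103). The second was called without YH250 2 (3.01, limma adjusted p = 0.000931), YH250 3 (2.43, 0.0474) or DMSO 2 (1.85, 0.0104). Endothelial cells also express Vwf, and the summed endothelial markers were 271 and 274 RPM at number 1, 331 and 245 RPM at number 2, and 221 and 196 RPM at number 3. Of these 12 markers, Egfl7 was at 85.5 RPM or more in every library and was not called, whereas Tie1 (2.22, limma adjusted p = 0.00231), Tek (2.497, 0.00445), Cldn5 (3.10, 0.00673) and Ecscr (1.95, 0.0151) were higher in number 1 than in number 3, as Vwf was. Cdh5 was between 1.04 and 5.69 RPM, with 0.42 (limma adjusted p = 0.771). Pecam1 went the other way, at 39.8 and 34.6 RPM at number 1 and 67.4 and 64.5 RPM at number 3. So did Stab2, at 7.15 and 4.68 RPM against 18.2 and 12.4 RPM. Egfl7, Pecam1 and Tie1 were the most abundant of the 12 markers. Bulk RNA cannot tell whether the sorted stem cells or endothelial cells held these marker transcripts. The part of endothelial cells in the Vwf level was not tested. Pf4 was likewise higher in both libraries of number 1 than in the other 4, with 1.76 (SE 0.52; limma adjusted p = 0.0685) in number 1 minus number 3, and was called without DMSO 1 (2.73, 0.00302) or DMSO 3 (2.72, 0.0263).

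Plek, the protein kinase C substrate pleckstrin of platelets and other blood cells (chromosome 11, 16971206 to 17052381), was lower in number 1. It was at 25.4 and 25.7 RPM at number 1, 68.5 and 53.3 RPM at number 2, and 78.7 and 115 RPM at number 3. The numbers did not overlap, and number 1 minus number 3 gave -1.86 (SE 0.27; limma adjusted p = 0.00321), or -1.50 (0.0603) without DMSO 3. The gene overlaps Cnrip1, which was between 18.5 and 65.2 RPM and highest in YH250 2. Rgs18 varied less, at 389.5 and 236 RPM at number 1, 385 and 372 RPM at number 2, and 293 and 352 RPM at number 3, with -0.08 (SE 0.24) in number 1 minus number 3.

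The transcription factor genes Nfe2, Zfpm1 and Gfi1b were higher in number 1 than in number 3. Nfe2 (chromosome 15, 103248212 to 103258403) was at 241 and 248 RPM at number 1, 269 and 283 RPM at number 2, and 88.1 and 80.1 RPM at number 3. Within each number the 2 treatments were close, and number 3 stood apart. The log2 differences were 1.53 (SE 0.19; limma adjusted p = 0.00124) in number 1 minus number 3 and 1.70 (SE 0.19; limma adjusted p = 0.00142) in number 2 minus number 3. Zfpm1, the gene of the Gata1 cofactor FOG1 (chromosome 8, 122282141 to 122337251), was at 51.3 and 50.9 RPM at number 1, 17.7 and 25.8 RPM at number 2, and 11.5 and 11.0 RPM at number 3. Number 1 was highest and number 3 lowest, without overlap, and number 1 minus number 3 gave 2.09 (SE 0.31; limma adjusted p = 0.00351), or 1.94 (0.0520) without DMSO 3. The gene model Gm20388 overlaps it and was between 11.4 and 34.7 RPM. Gfi1b, a repressor that both lineages need (chromosome 2, 28609450 to 28621982), was at 53.8 and 47.7 RPM at number 1, 13.3 and 29.0 RPM at number 2, and 14.5 and 19.9 RPM at number 3. Number 1 was above the other 4 libraries, with 1.52 (SE 0.34; limma adjusted p = 0.0263) in number 1 minus number 3. That call was lost without YH250 1 (1.06, limma adjusted p = 0.250), YH250 3 (1.53, 0.0920) or DMSO 3 (1.51, 0.201).

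Klf1 and Mef2c followed other orders. Klf1 was highest in number 2, at 12.6 and 7.84 RPM, against 0.876 and 1.55 RPM at number 3, a log2 difference of 2.32 (SE 0.58; limma adjusted p = 0.0451). It was not called without YH250 3 (1.60, limma adjusted p = 0.397) or DMSO 3 (3.05, 0.101). Mef2c was at 135 and 107 RPM at number 1, 127 and 109 RPM at number 2, and 206 and 193 RPM at number 3, high in number 3 and not overlapping. It gave -0.73 (SE 0.19; limma adjusted p = 0.0468) in number 1 minus number 3 and -0.75 (SE 0.19; limma adjusted p = 0.0485) in number 2 minus number 3. Neither Mef2c call held after quantile normalization (-0.36 and -0.52, limma adjusted p = 0.258 and 0.102) or rescaling to the same sum (-0.37 and -0.51, 0.210 and 0.104), nor without YH250 3 (-0.82 and -0.85, 0.0653 and 0.0727) or DMSO 3 (-0.63 and -0.66, 0.291 and 0.248). The first was also lost without YH250 1 (-0.82, limma adjusted p = 0.125) or DMSO 1 (-0.63, 0.419), and the second without YH250 2 (-0.76, 0.103) or DMSO 2 (-0.75, 0.0666). Pbx3, a homeobox cofactor, was between 2.06 and 10.6 RPM and not called.

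Car2 and Hbb-bt were higher in number 2 than in number 3. Car2 (chromosome 3, 14886273 to 14900770) was at 1302 and 1147 RPM at number 1, 1603 and 1685 RPM at number 2, and 429 and 549 RPM at number 3. Both libraries of number 3 lay far below the rest, with 1.33 (SE 0.20; limma adjusted p = 0.00389) in number 1 minus number 3 and 1.76 (SE 0.20; limma adjusted p = 0.00166) in number 2 minus number 3. Hbb-bt (chromosome 7, 103812524 to 103813996) was at 82.6 and 88.6 RPM at number 1, 121 and 199 RPM at number 2, and 23.1 and 66.9 RPM at number 3. Number 2 was highest and number 3 lowest, without overlap. It gave 1.95 (SE 0.30; limma adjusted p = 0.00822) in number 2 minus number 3 and 1.10 (limma adjusted p = 0.0554) in number 1 minus number 3. The second was called without YH250 2 (1.10, limma adjusted p = 0.0200), DMSO 1 (1.60, 0.00557), DMSO 2 (1.10, 0.0248) or DMSO 3 (1.64, 0.0129), after quantile normalization or rescaling to the same sum, with a pseudocount of 5 and with a minimum mean of 5 RPM. Rhd was at 4.36 and 4.78 RPM at number 2 and 0.250 and 0.182 RPM at number 3, or 6 and 4 reads, with 2.20 (SE 0.52; limma adjusted p = 0.0401). It was not called without YH250 3 (2.47, limma adjusted p = 0.122) or DMSO 3 (1.92, 0.312).

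Tfrc, the transferrin receptor that brings iron into red cell precursors and other dividing cells (chromosome 16, 32608920 to 32632794), was at 26.4 and 26.2 RPM at number 1, 7.52 and 31.7 RPM at number 2, and 111 and 104 RPM at number 3. Number 3 was high in both treatments and YH250 2 was lowest. The log2 differences were -1.99 (SE 0.45; limma adjusted p = 0.0261) in number 1 minus number 3 and -2.70 (SE 0.45; limma adjusted p = 0.0103) in number 2 minus number 3. The first was not called without YH250 3 (-1.46, limma adjusted p = 0.172) or DMSO 1 (-1.52, 0.192), nor after rescaling to the same sum (-1.65, 0.0710), and the second was -1.70 without YH250 2, still called. Fech was at 29.0 and 19.4 RPM at number 1, 36.98 and 12.7 RPM at number 2, and 14.4 and 13.1 RPM at number 3. Its differences were 0.75 (limma adjusted p = 0.268) in number 1 minus number 3 and 0.63 (0.342) in number 2 minus number 3, and both were called without DMSO 2 (0.75, 0.0494, and 1.195, 0.0193). Urod, a middle enzyme of heme synthesis, lay between 27.9 and 61.0 RPM, with 0.30 (limma adjusted p = 0.676) in number 1 minus number 3.

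Further members passed by number when 1 library was left out, in fits where the lone library of a number was taken to vary like the others. In number 2 minus number 3 these were, without DMSO 2, Gp5 (log2 difference 1.862), Treml1 (2.099), Selp (1.458) and Gata1 (2.593). Without YH250 2 they were Zfpm1 (log2 difference 1.146), Plek (-0.9634) and Urod (0.9631). In number 1 minus number 2, without DMSO 2, they were F2r (log2 difference 1.95), Tfrc (1.708), Gfi1b (1.789), Plek (-1.528), Zfpm1 (1.496), Ppbp (2.215) and Rhd (-2.196). Without YH250 2 they were Gp9 (log2 difference 2.03) and Gp5 (2.13). Without DMSO 2, number 2 was YH250 2 alone, the library at -79.3 on the second principal component. With DMSO 2 or YH250 2 left out, calls over all genes also rose in all 3 comparisons between numbers. Whether the members gained in those fits, here or above, stood apart from all genes was not tested. Car1 turned on YH250 1: without it, leaving DMSO 1 with 7.39 reads as the lone library of number 1, all 3 comparisons between numbers called it, with log2 differences of -5.07 in number 1 minus number 3, -7.19 in number 1 minus number 2 and 2.11 in number 2 minus number 3.

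Counted by libraries alone, both libraries of number 1 were above both of number 3 for 18 of the 31 members, against 27.6% of all tested genes, and below both for 4 members, against 32.6%. Both libraries of number 1 were above all other libraries for 7 members, against 9.58% of all tested genes. Of these 7, Gp5, Gp9, Pf4 and Vwf encode platelet proteins, F2r encodes a thrombin receptor, and Gfi1b and Zfpm1 encode transcription factors. Both libraries of number 3 were below all others for 9 members (Car2, Gp1ba, Gp5, Gp9, Hbb-bt, Klf1, Nfe2, Treml1 and Zfpm1), against 14.3% of all tested genes, and above all others for Mef2c, Plek and Tfrc, against 19.9%. Sort genes moved with the same numbers: within each treatment, Slamf1 and Itga2b were highest and Cd48 lowest in number 1. Flt3 and the B and T cell sums were also lowest there. The part of these genes and sums in the members' levels was not tested.

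Of the 5 members called in number 1 minus number 3 and highest in both libraries of number 1, Gp5, Gp9, Gfi1b and Zfpm1 had an entry in the RefSeq promoter table (GRCm38.p6). The 130 bases before each start are printed from 5' to 3' on the gene's strand because these members moved together, with GATAA, the core letters bound by Gata factors, or its reverse complement TTATC in capitals. They lie at chr16:30310782-30310911 (minus strand) for Gp5, chr6:87777940-87778069 (plus strand) for Gp9, chr2:28621983-28622112 (minus strand) for Gfi1b and chr8:122282011-122282140 (plus strand) for Zfpm1.
Gp5: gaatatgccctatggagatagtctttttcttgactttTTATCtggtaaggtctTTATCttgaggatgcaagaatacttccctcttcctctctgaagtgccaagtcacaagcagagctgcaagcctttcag
Gp9: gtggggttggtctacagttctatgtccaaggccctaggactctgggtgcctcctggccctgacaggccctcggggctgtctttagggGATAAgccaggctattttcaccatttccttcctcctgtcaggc
Gfi1b: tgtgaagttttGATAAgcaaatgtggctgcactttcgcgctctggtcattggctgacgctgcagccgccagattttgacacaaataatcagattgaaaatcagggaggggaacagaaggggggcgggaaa
Zfpm1: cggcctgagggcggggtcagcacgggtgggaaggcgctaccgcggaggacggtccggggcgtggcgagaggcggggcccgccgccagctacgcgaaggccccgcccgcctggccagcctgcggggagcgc
Gp5 held 2 such matches, Gp9 and Gfi1b held 1 each, and Zfpm1 held none in the 250 bases before its start. The 29 members with an entry had 32 windows of 250 bases before a start. GATAA, on either strand, was in 18 of these 32 (56.2%) and in 22.6% of the 32851 windows of the table. The letters CACCC, or GGGTG as read from the other strand, are of the kind bound by Klf1 and occurred in 24 of the 32 (75%) and in 52% of all windows. A match describes the letters and is neither a shown site nor a cause.

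Other genes of the same pathways, listed by role, were read from the same fits, and none of them passed in YH250 minus DMSO (limma). These lists were chosen with earlier results of these data known, so their counts beside all tested genes are descriptive only. Without the replicate block, Myb alone had an unadjusted p under 0.05. With the block, 2 of the 22 megakaryocyte and platelet genes, 2 of the 19 red cell genes and 5 of the 17 transcription factors did, beside 7.44% of all tested genes. Of 25 other megakaryocyte and platelet genes, 22 were tested, and in number 1 minus number 3, 9 were higher and 0 lower, with a median of 1.28, where 2.96% of all tested genes were higher. After quantile normalization, and after rescaling to the same sum, 11 were higher. In number 2 minus number 3, 9 were higher and 1, the integrin gene Itgb3, was lower, with a median of 0.90, where 2.64% of all tested genes were higher. The Itgb3 call was lost after rescaling. Bin2, a membrane-shaping protein of blood cells, was at 211 and 197 RPM at number 1, 206 and 189.7 RPM at number 2, and 87.6 and 59.5 RPM at number 3. Both libraries of number 3 were below the rest, with 1.48 (limma adjusted p = 0.00247) in number 1 minus number 3 and 1.44 (limma adjusted p = 0.00506) in number 2 minus number 3. Fermt3, the integrin activator kindlin-3, was at 200.9 and 172 RPM at number 1, 223 and 143 RPM at number 2, and 101 and 71.5 RPM at number 3. It too was lowest at number 3, with 1.12 (limma adjusted p = 0.00900) and 1.06 (0.0158) in these comparisons.

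Among other red cell genes, 33 were listed, 32 were in the table and 19 were tested. Higher in number 1 than in number 3 were 2, Epor (the erythropoietin receptor) and Blvrb (biliverdin reductase B). In number 2 minus number 3, 2 were higher, Rhag (a Rhesus-associated glycoprotein) and Blvrb, and 0 were lower in either comparison. The shares of all tested genes that were higher were 2.96% and 2.64%. In number 1 minus number 3 the count became 3 after quantile normalization, with Epb41, and 5 after rescaling to the same sum, with Epb41, Aqp1 and Rhag. It became 3 under either in number 2 minus number 3, with Epor. Blvrb was at 52.4 and 36.1 RPM at number 1, 49.1 and 47.1 RPM at number 2, and 23.1 and 19.7 RPM at number 3, lowest in number 3. Alad, an early enzyme of heme synthesis, was at 36.0 to 68.4 RPM, and Epb41, a skeleton protein of the red cell membrane, at 28.1 to 53.0 RPM, and neither was called by number on the deposited scale. Of 17 other transcription factors of these lineages, all tested, 4 were higher in number 1 than in number 3 (Mecom, Gata2, Mafg and Ldb1), 4 were higher in number 2 than in number 3 (Mecom, Lmo2, Gata2 and Mafg), and 0 were lower, again beside 2.96% and 2.64% higher among all tested genes. After quantile normalization or rescaling the counts were 7 and 5, with 0 lower. Lmo2, a bridging protein of the Gata complex, was at 550.2 and 728 RPM at number 1, 744 and 890.1 RPM at number 2, and 317 and 549 RPM at number 3. Myb, a factor of early blood progenitors, was at 263, 261 and 339 RPM in YH250 1, 2 and 3 and at 386, 428 and 540 RPM in DMSO 1, 2 and 3. Every YH250 library lay below every DMSO library, as was so for 3.68% of all tested genes, with a log2 difference of -0.64 (SE 0.22; limma unadjusted p = 0.0178, adjusted p = 0.999). Bcl11a, a repressor of embryonic globins, was at 126 to 186 RPM after YH250 and 171 to 256 RPM after DMSO, and the groups overlapped.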

How the data were processed

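Poly(A) RNA of sorted LTR-HSC was measured in 3 YH250 and 3 DMSO libraries. The authors deposited a normalized signal for each gene in each library without stating its unit. The lowest value is 1 and the excess falls on multiples of 1 read, so values were read as RPM plus an offset of 1, which was subtracted; 61.1% to 68.4% of low values lay within 0.1 of a whole read, so no count model was used. CASAVA 1.8.2, TopHat2 2.0.8, Partek and the build mm10 are named, without roles, in the submitters' processing notes, and the sources used here give no annotation. Symbols were matched for 40254 of 41128 IDs, with positions from GENCODE M21 (GRCm38). Reads of near-identical or overlapping genes may be shared.

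Genes whose mean reached 1 RPM were tested on log2(RPM + 1), a scale that understates the change of low genes, with limma 3.58.1 in R 4.3.3 (trend and robust; tested on simulated data) and Benjamini-Hochberg adjustment over all 13597 genes at 0.05. YH250 minus DMSO had no covariate; contrasts between numbers had treatment as covariate, 2 libraries per number and 2 residual degrees of freedom before moderation. Summaries were made in Python 3.11.15. All 37 members are described by role, with the 3 most abundant genes of each other list, the sums of the marker lists and 5 genes of the sort or of progenitors. A gene that this rule takes is not reported here. The members and lists were chosen with earlier results of these data known. Same-numbered libraries deviated together from their group means, with correlations of 0.55, 0.26 and 0.70 for numbers 1, 2 and 3, all above 0.1. Of the differently numbered pairs, YH250 1 with DMSO 2 (0.144) and YH250 2 with DMSO 1 (0.109) were also above 0.1. For the treatment comparison the number was fitted as a block only as an alternative. Treatment intervals and p-values come from the fit without it unless the block is named. The labels do not say what the number stands for. Alternatives were pseudocounts of 0.5 and 5, no minimum mean or a minimum of 5 RPM, quantile normalization, rescaling of each library's genes to the same sum, the block or no treatment term, and each library left out. Leaving out both libraries numbered 3 was chosen after seeing the data.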

Additional observations from a re-analysis of the deposited data

How the results depend on the processing

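No gene passed in YH250 minus DMSO under any of the 14 alternatives (limma, 138 to 1012 genes at an unadjusted p under 0.05), among them the fit with the replicate block (0 genes called, 1012 at an unadjusted p under 0.05), the fit without both libraries numbered 3 (0 and 428) and the fits with 1 library left out (0 to 0). The count for number 1 minus number 2, 27 genes, was 0 with no minimum mean, 75 with a minimum mean of 5 RPM and 46 after quantile normalization, and 39 to 1764 with 1 library left out. The count for number 1 minus number 3, 1164 genes, was 180 with no minimum mean and 417 to 3010 with 1 library left out. The count for number 2 minus number 3, 858 genes, was 42 with no minimum mean and 250 to 3137 with 1 library left out. No member that was called reversed its direction under any alternative. Nfe2 and Car2 were called in both comparisons with number 3 under all 13 alternatives. With no minimum mean every other member's call was lost, with adjusted p between 0.0563 (Gp5) and 0.199 (Klf1). Klf1 and Rhd were also lost with a pseudocount of 0.5 (adjusted p = 0.0535 and 0.0547), as was Mef2c in number 2 minus number 3 (0.0517), Klf1 with a minimum mean of 5 RPM (0.0645), and Klf1 and Mef2c without the treatment term. Of the members not called, F2r (adjusted p = 0.0390) and Pf4 (0.0391) passed in number 1 minus number 3 after rescaling to the same sum, Pf4 also with a minimum mean of 5 RPM (0.0440), and with that minimum Vwf (0.0399) and F2r (0.0499) passed in number 1 minus number 2. With a pseudocount of 5, where the calls held, Klf1 was 1.28 and Rhd 0.88 in number 2 minus number 3. The cause was not tested. The 6 members below a mean of 1 RPM were left untested by the minimum chosen, at which a level rested on 21.96 to 31.19 reads.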
